A study of Caenorhabditis elegans with 6 samples.

Results

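The genes described here are the cytochrome P450 genes of Caenorhabditis elegans that lie outside the families cyp-25, cyp-29, cyp-31, cyp-32, cyp-35, cyp-37 and cyp-42. They were chosen by gene symbol alone, as every symbol that begins with cyp- and belongs to none of those families. The array held 50 probes for 46 of them, among 22490 probes for 18865 genes and 74 P450 genes in all. The 46 genes fell into 13 subfamilies of the families cyp-13, cyp-14, cyp-23, cyp-33, cyp-34, cyp-36, cyp-43 and cyp-44. The same rule finds 50 genes in the gene table of the assembly WBcel235, and cyp-13A8, cyp-13A9, cyp-14A4 and cyp-33D3 had no probe matched to them here. The P450 gene of the cyp-22 family carries the symbol daf-9, so that it is not one of the 46 and is given below among the genes of the pathway. One of the 46, cyp-34A3, is annotated as a pseudogene.

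Worms of the wild type strain N2 grown on chlorpyrifos (CPF), an organophosphorus insecticide that inhibits acetylcholinesterase, were set against control worms grown on acetone, the solvent of CPF. Both grew from synchronized eggs for 72 h at 16 °C on agar with Escherichia coli OP50 and were collected as L3/L4 larvae. CPF was at 0.5 mg/ml by the labels, whereas the study's text gives that figure per litre. The deposited files do not settle the unit. The study's text also places the dose below published effect concentrations for reproduction and growth, which only the figure per litre meets. Each of the 6 arrays with 2 colours carried 1 CPF and 1 control sample, with CPF in Cy5 on 3 arrays (CPF Cy5 replicates 1 to 3) and in Cy3 on the other 3 (CPF Cy3 replicates 1 to 3). A sample came from a pool of 4 dishes. The series text calls the replicates biological, but no source used here says if control extracts were separate for every array. The p-values below therefore reflect how far these arrays differ from each other.

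Cytochrome P450 enzymes are haem proteins that insert an oxygen atom into lipids, sterols, hormones and foreign compounds. Most sit in the membrane of the endoplasmic reticulum and draw electrons from NADPH-cytochrome P450 reductase. The products are usually more soluble, though P450 enzymes also turn thiophosphate insecticides such as CPF into their more toxic oxon. In worms many P450 genes lie in tandem arrays of close relatives. The cyp-13 genes resemble the CYP3 enzymes of vertebrates, the cyp-14, cyp-33 and cyp-34 genes the CYP2 enzymes, and cyp-44A1 the mitochondrial P450 enzymes of animals.

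Signals are given as normalized log2 signals of the channel, and changes as log2 ratios of CPF over control, each with the SE of a limma fit over the 6 arrays. A probe was counted as above background where its foreground exceeded the local background by more than 2 SD. Per sample 34.98% to 61.6% of all probes met this, with the minimum for CPF and the maximum for a control, on CPF Cy3 replicates 2 and 1. Correlations between arrays over all genes ranged from -0.09 to 0.58. The time stamps in the file headers fell on 2 days, called header days here because the headers do not say what was done at that time. CPF Cy5 replicates 1 and 2 and CPF Cy3 replicate 1 belong to header day 1, and the other 3 arrays to header day 2. A fit within a header day thus had 3 arrays, with only 1 array in 1 of the 2 dye orientations. Its p-values lean on a spread estimated over all genes. Probe signals of different genes are not compared, and close paralogs may share signal, since the cyp-13A, cyp-33C and cyp-34A genes are families of similar sequence.

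Of these 46 P450 genes 0 were higher and 0 were lower in CPF treated worms at an adjusted p below 0.05 (limma, Benjamini-Hochberg over 18865 genes). Among all genes tested 1.19% passed, 0.323% higher and 0.869% lower. The lowest adjusted p among them was 0.0893, that of cyp-34A9. At an unadjusted p below 0.05 there were 7 of the 46 genes, 5 higher and 2 lower, against 10.3% of all genes (3.89% higher and 6.45% lower). The fitted log2 values, those of dim spots included, ran from -0.28 to 0.55, with a median of 0.01, and the median over all genes was also 0.01. The change was positive for 28 and negative for 18. CPF and control signals overlapped between the arrays for each of the 46 genes, as they did for all but 0.35% of all genes. The percentage of false positives (PFP) of the rank product, the test named in the study's methods, was below 0.05 for 1 of the 46, cyp-33C8, which was higher, and for 2.89% of all genes (0.816% higher). Within header day 1 the limma fit called 1 of the 46, cyp-13A2, as higher, against 1.22% of all genes, and within header day 2 it called 0. An unadjusted p below 0.05 was seen in 11 of the 46 within header day 1, against 21.3% of all genes, and in 6 within header day 2, against 7.89% of all genes.

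The other 28 P450 genes, measured on the same arrays, are given for comparison. Of these 10 were higher in CPF treated worms and 0 were lower, with a median log2 change of 0.21. The 10 were 3 of 5 cyp-25 genes, 2 of 4 cyp-29 genes, 4 of 10 cyp-35 genes and 1 of 2 cyp-37 genes. The difference between the counts of the 2 sets was not tested. Among the 28 genes the count was 4 without background correction, and 5, 2 and 4 without CPF Cy5 replicate 1, CPF Cy5 replicate 2 and CPF Cy3 replicate 3.

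**Figure D1:**
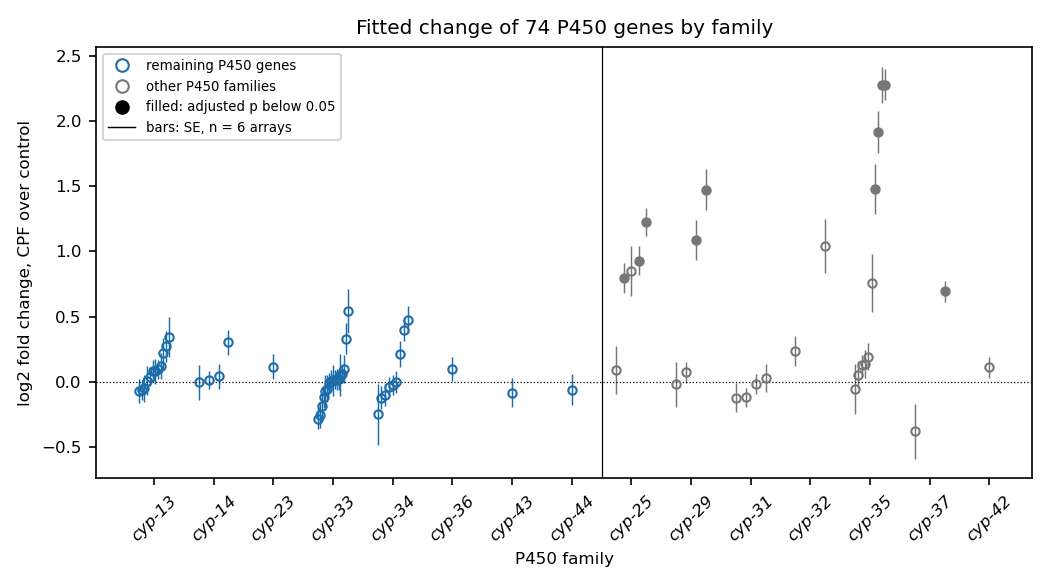
Fitted log2 change of CPF over control (vertical axis) for 74 P450 genes by family (horizontal axis), the 46 genes described here in blue left of the line and the other 28 in grey right of it, with bars for the SE over 6 arrays and filled symbols for an adjusted p below 0.05. The 46 genes lie between -0.28 and 0.55 with no filled symbol, and 10 of the other 28 are filled.

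Signal over background set what could be measured. In at least 1 condition 22 of the 46 genes were above background on 3 or more arrays, 7 on 1 or 2 arrays and 17 on no array. Only cyp-14A5, cyp-33C4, cyp-33C9 and cyp-34A8 were above background on all 6 arrays in both conditions. Over the 22 genes the median log2 change was 0.10, 14 were positive, 6 had an unadjusted p below 0.05 and 0 an adjusted one, against 14.7% and 2.03% of all 10995 genes that met the same filter. The 95% intervals of all 22 changes lay between -0.49 and 0.94, that is within 2-fold in either direction. With plain subtraction of the local background 17 of the 22 intervals were within 2-fold, and those of cyp-13A10, cyp-14A2, cyp-33C8, cyp-34A1 and cyp-34A10 were wider, with bounds from -0.72 to 1.47 over the 22 genes. For the 17 genes above background on no array the fitted values, from -0.10 to 0.09, are those of signals near background, and no change of these genes was detectable. For cyp-13A3, cyp-13A5, cyp-13A12, cyp-14A1 and cyp-33C3, which were above background in 1 condition only and on at most 2 arrays there, no fold or fitted change is stated. Their fitted values enter counts, medians, ranges and figures. Array ratios of cyp-13A3 and cyp-33C3, and the sign and p-value of cyp-33C3, are given below as those of dim spots and not as a change.

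**Figure D2:**
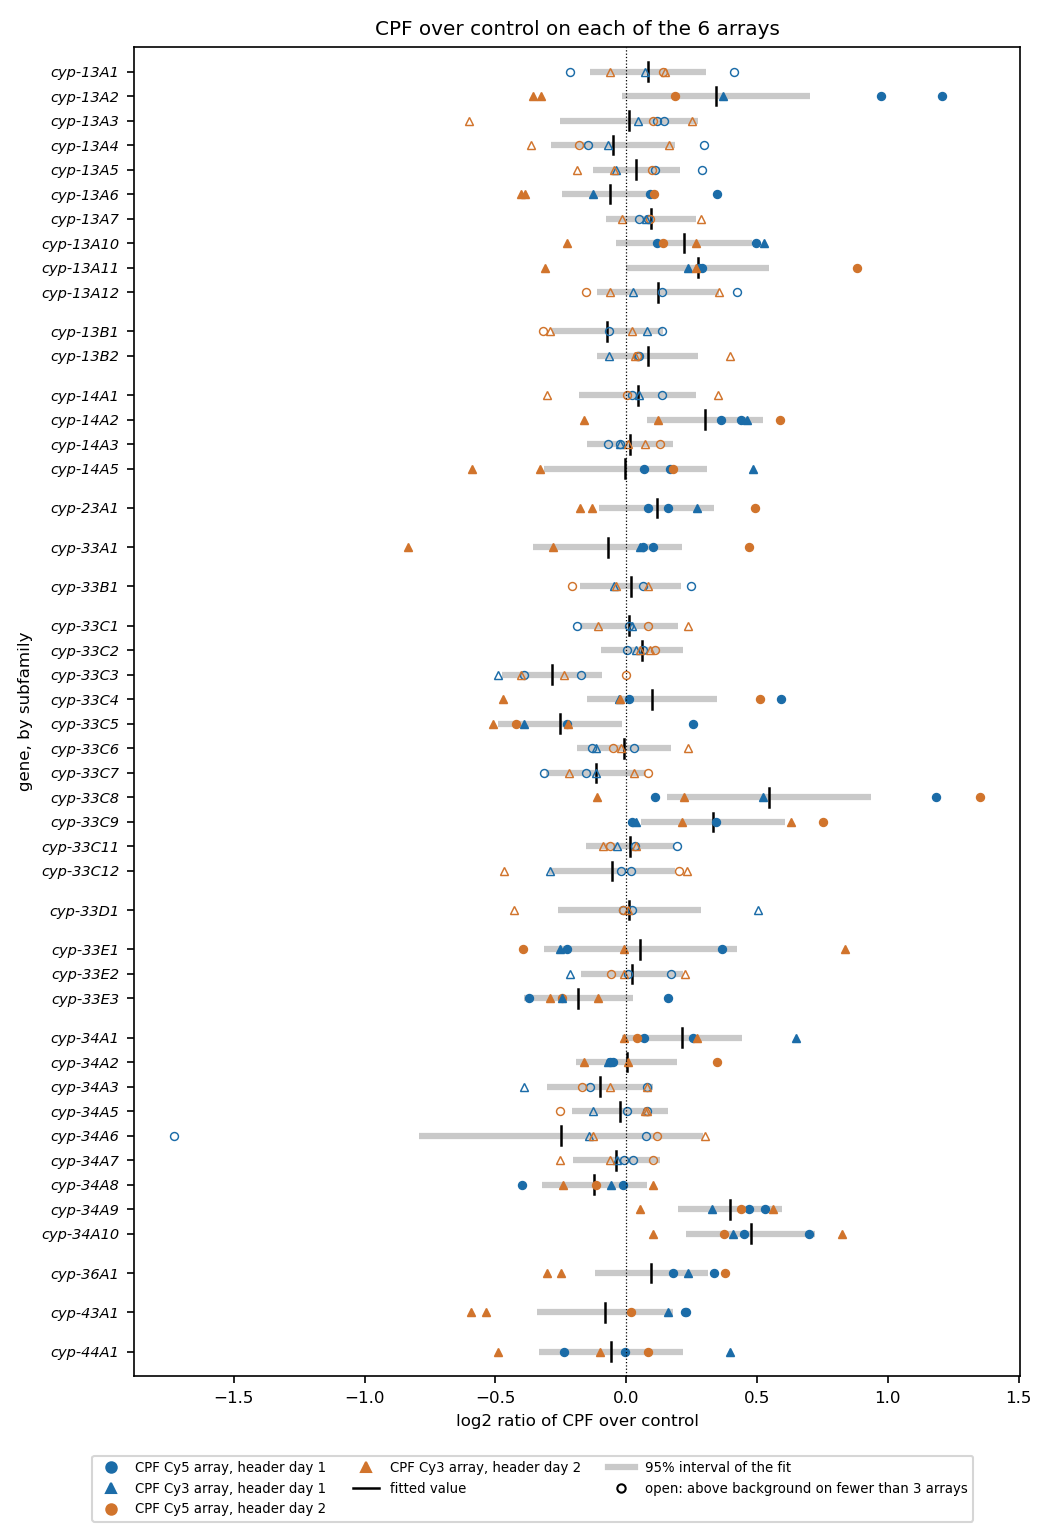
Log2 ratio of CPF over control (horizontal axis) on each of the 6 arrays for the 46 genes by subfamily (vertical axis), with circles for CPF Cy5 arrays, triangles for CPF Cy3 arrays, blue for header day 1 and orange for header day 2. Vertical ticks are fitted values, grey bars their 95% intervals, and open symbols genes above background on fewer than 3 arrays; the ratios of cyp-33C2, cyp-33C9, cyp-34A9 and cyp-34A10 are above 0 on all 6 arrays, and cyp-34A6 has 1 ratio of -1.73.

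The cyp-13A subfamily was measured through 10 genes, of which 8 had a positive and 2 a negative change, with a median of 0.09. Its lowest adjusted p was 0.485, that of cyp-13A11. This gene had CPF signals of 7.48, 7.21 and 7.90 on CPF Cy5 replicates 1 to 3 and 7.52, 8.07 and 7.66 on CPF Cy3 replicates 1 to 3. Its control signals on the same arrays were 7.20, 6.93, 7.02, 7.28, 8.38 and 7.40. CPF was above control on 5 arrays and below it on CPF Cy3 replicate 2, where both samples were at their highest. The log2 change of cyp-13A11 was 0.27 ± 0.12 (SE, n = 6), with a 95% interval from -0.00176 to 0.55. This rests on 1 of 3 probes for the gene, and the other two were above background nowhere. The value was 0.16 without background correction and 0.42 with plain subtraction.

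The gene cyp-13A2 had the highest fitted change of the subfamily, 0.34 ± 0.15 (adjusted p = 0.515), and was taken up after its values were seen. Its log2 ratios were 0.97, 1.21 and 0.18 on CPF Cy5 replicates 1 to 3 and 0.37, -0.36 and -0.33 on CPF Cy3 replicates 1 to 3. The 3 arrays of header day 1 held the highest ratios and CPF Cy3 replicates 2 and 3, both of header day 2, the 2 negative ones. Only CPF Cy3 replicate 1 had CPF in Cy3 on header day 1, so that the fit within that day leaned on this array. Within header day 1 the change of cyp-13A2 was 0.73 with an adjusted p of 0.0265 (limma), where 4.56% of all genes passed. Within header day 2 it was -0.08 with an adjusted p of 0.992. The difference between the days was -0.81 ± 0.17 (day 2 minus day 1), with an unadjusted p of 0.00165 and an adjusted p of 0.568 in the limma fit over all genes. At an unadjusted p below 0.05 this difference was seen in 3 of the 46 genes, cyp-13A2, cyp-33C9 (0.48 ± 0.20) and cyp-43A1 (-0.47 ± 0.18), against 8.53% of all genes, and at an adjusted p below 0.05 in 0 genes.

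The other cyp-13A genes above background on 3 or more arrays were cyp-13A6 and cyp-13A10, with changes of -0.06 ± 0.08 and 0.22 ± 0.11 and adjusted p-values of 0.881 and 0.581. The change of cyp-13A6 was positive within header day 1 (0.05). Of the dim genes, cyp-13A7, known to respond to the drug rifampicin in C. elegans, was above background on no array. The gene cyp-13A12, which acts below the oxygen sensor EGL-9 and the factor HIF-1 in the worm's response to reoxygenation, was above background on 1 control array and on 0 CPF arrays. On chromosome II cyp-13A2 to cyp-13A9 lie next to each other in a run of 8 genes, of which 6 were measured. The median change over these 6 was 0.02, and only cyp-13A2 and cyp-13A6 of them were above background on 3 or more arrays.

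The subfamily cyp-13B holds cyp-13B1 and cyp-13B2 on the X chromosome. Both were above background on no array. The lowest unadjusted p of the pair was that of cyp-13B2, 0.351, with log2 ratios of 0.05, 0.04 and 0.04 on CPF Cy5 replicates 1 to 3 and -0.07, 0.03 and 0.40 on CPF Cy3 replicates 1 to 3. The 0.40 of CPF Cy3 replicate 3 stood apart from the other 5 ratios, with a signal of 6.23 in CPF and 5.84 in the control there.

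In cyp-14A, 4 genes were measured, with changes from -0.00352 for cyp-14A5 to 0.30 for cyp-14A2. The CPF signals of cyp-14A2 were 7.33, 7.06 and 7.59 on CPF Cy5 replicates 1 to 3 and 7.63, 6.27 and 7.24 on CPF Cy3 replicates 1 to 3. Its control signals were 6.97, 6.62, 7.001, 7.17, 6.15 and 7.40 in the same order. CPF was above control on 5 arrays, and on CPF Cy3 replicate 3 the control was higher. The change of cyp-14A2 was 0.30 ± 0.10 (SE, n = 6), with a 95% interval from 0.08 to 0.52 and an adjusted p of 0.273. Without both CPF Cy3 replicates 2 and 3, a setting chosen after the data were seen, it was 0.46 with an adjusted p of 0.0608. Without background correction it was 0.17 and with plain subtraction 0.64. The gene lies between cyp-14A1 and cyp-14A3 on the X chromosome, and the signals of these neighbours were near background. The more strongly detected cyp-14A5, on chromosome V, had ratios from -0.59 on CPF Cy3 replicate 3 to 0.48 on CPF Cy3 replicate 1, and its change of -0.00352 ± 0.13 turned to 0.30 within header day 1 (adjusted p = 0.16).

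The single member of cyp-23A, cyp-23A1, had log2 ratios of 0.08, 0.16 and 0.49 on CPF Cy5 replicates 1 to 3 and 0.27, -0.13 and -0.18 on CPF Cy3 replicates 1 to 3. Its mean signal was 7.36 ± 0.51 in CPF and 7.24 ± 0.39 in control worms (SD, n = 6). The change of 0.12 ± 0.09 had an adjusted p of 0.781.

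The cyp-33 family is the largest here, with 17 measured genes in 5 subfamilies, of which 7 were above background on 3 or more arrays and 8 on none. In cyp-33C, 11 genes were measured. Their fitted values ran from -0.28 to 0.55 around a median of 0.01, with 6 positive and 5 negative, and 4 of the 11 had an unadjusted p below 0.05. Of these cyp-33C8 and cyp-33C9 had positive values and cyp-33C3 and cyp-33C5 negative ones.

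For cyp-33C8 the CPF signals were 6.04, 8.66 and 9.25 on CPF Cy5 replicates 1 to 3 and 9.37, 6.93 and 9.23 on CPF Cy3 replicates 1 to 3. The control signals on these arrays were 5.93, 7.48, 7.90, 8.85, 7.05 and 9.01. The gene was above background on 4 arrays in each condition. Its signal varied more between arrays than between CPF and control of an array, with means of 8.25 ± 1.41 in CPF and 7.70 ± 1.16 in control worms (SD, n = 6). The ratios were 1.18 and 1.35 on CPF Cy5 replicates 2 and 3, 0.52, -0.11 and 0.22 on CPF Cy3 replicates 1 to 3, and 0.11 on CPF Cy5 replicate 1. The change of cyp-33C8 was 0.55 ± 0.17 (SE, n = 6), with a 95% interval from 0.16 to 0.94 and an adjusted p of 0.249. The rank product gave cyp-33C8 a PFP of 0.0296. Where only spots with the scanner's code 3 were kept, its change was 0.82 with an adjusted p of 0.0491 (limma). In that setting 10 of the 46 genes had a value and 2.26% of 6411 genes passed (0.764% higher). It left out the spots of cyp-33C8 on CPF Cy5 replicate 1 and CPF Cy3 replicate 2, its lowest ratios, 0.11 and -0.11. With plain subtraction the change of cyp-33C8 was 0.85 (adjusted p = 0.132). Leaving out 1 array at a time gave changes from 0.43 to 0.74 with adjusted p-values from 0.0926 to 0.659.

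For cyp-33C9, above background in every sample, the CPF signals were 8.75, 8.10 and 9.004 on CPF Cy5 replicates 1 to 3 and 8.62, 8.82 and 9.22 on CPF Cy3 replicates 1 to 3. Its control signals were 8.41, 8.08, 8.25, 8.59, 8.61 and 8.60 in the same order. CPF was above control on all 6 arrays, by 0.02 and 0.04 on the arrays CPF Cy5 replicate 2 and CPF Cy3 replicate 1, and by 0.75 and 0.63 on the arrays CPF Cy5 replicate 3 and CPF Cy3 replicate 3. The change of cyp-33C9 was 0.33 ± 0.12 (SE, n = 6), with a 95% interval from 0.06 to 0.61 and an adjusted p of 0.35. A ratio of the same sign on all 6 arrays was seen in 4 of the 46 genes (cyp-33C2, cyp-33C9, cyp-34A9 and cyp-34A10, all higher in CPF) and in 7.13% of all genes (2.86% higher). Of the 4, cyp-33C2 was above background on no array.

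The negative values of the subfamily were smaller. For cyp-33C5 the CPF signals ran from 7.14 to 8.03 and the control signals from 6.89 to 8.45, both lowest on CPF Cy5 replicate 2. The log2 ratios were -0.23, 0.25 and -0.42 on CPF Cy5 replicates 1 to 3 and -0.39, -0.22 and -0.51 on CPF Cy3 replicates 1 to 3, negative on 5 of 6 arrays. The change was -0.25 ± 0.10 with an adjusted p of 0.441. For cyp-33C3 the ratios were -0.39, -0.17 and 0.00 on CPF Cy5 replicates 1 to 3 and -0.49, -0.40 and -0.24 on CPF Cy3 replicates 1 to 3. It was above background on 1 control array and on no CPF array, and its mean signals of 6.41 ± 0.25 in CPF and 6.70 ± 0.30 in control worms were those of a spot near background. The adjusted p of this dim spot was 0.217. On chromosome V cyp-33C3, cyp-33C5, cyp-33C6 and cyp-33C7 are neighbours, and of these only cyp-33C5 was above background on 3 or more arrays. The last of the detected genes of the subfamily, cyp-33C4, had a change of 0.10 ± 0.11 and ratios from -0.47 to 0.59.

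**Figure D3:**
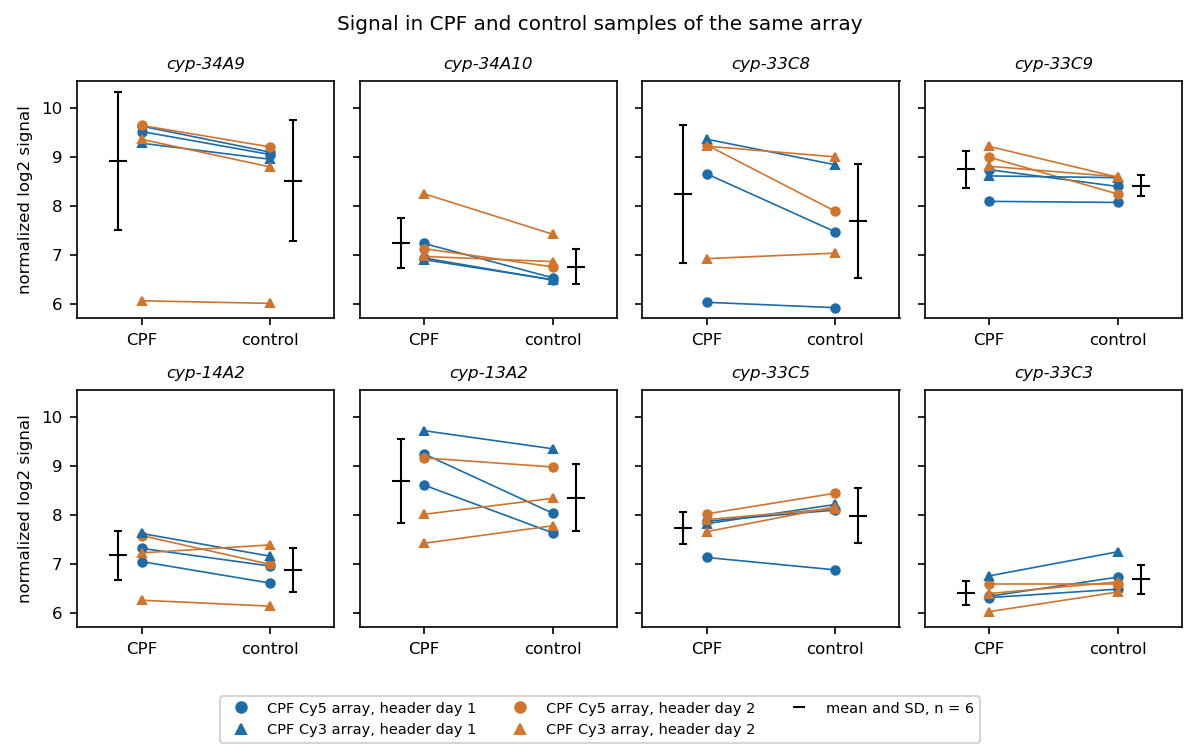
Normalized log2 signal (vertical axis) of 8 P450 genes in the CPF and the control sample of each array, joined by a line, with circles for CPF Cy5 arrays, triangles for CPF Cy3 arrays, blue for header day 1 and orange for header day 2. Bars are the mean and SD over 6 arrays; for cyp-34A9 1 array (CPF Cy3 replicate 2) lies near 6 and the other 5 near 9 in both conditions, and CPF and control overlap in all 8 panels.

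The remaining cyp-33 genes showed no change past the test. The gene cyp-33A1 had ratios of 0.10, 0.06 and 0.47 on CPF Cy5 replicates 1 to 3 and 0.05, -0.28 and -0.84 on CPF Cy3 replicates 1 to 3, with a change of -0.07 ± 0.12 (adjusted p = 0.919). Its sign turned without CPF Cy3 replicate 3, where the change was 0.05. The genes cyp-33B1 and cyp-33D1 were above background on no array. The ratios of cyp-33B1 were 0.06, 0.25 and -0.21 on CPF Cy5 replicates 1 to 3 and -0.05, -0.04 and 0.08 on CPF Cy3 replicates 1 to 3. Those of cyp-33D1 were -0.01, 0.02 and -0.01 on CPF Cy5 replicates 1 to 3 and 0.50, 0.01 and -0.43 on CPF Cy3 replicates 1 to 3. Both sets of ratios lay on either side of 0.

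In cyp-33E, cyp-33E2, whose enzyme makes eicosanoids in C. elegans and is active in the pharynx, was above background on no array. Its neighbour cyp-33E3 had CPF signals of 7.08, 7.45 and 6.92 on CPF Cy5 replicates 1 to 3 and 7.17, 8.28 and 7.13 on CPF Cy3 replicates 1 to 3, and control signals of 6.92, 7.82, 7.16, 7.42, 8.57 and 7.24. CPF was below control on 5 arrays and above it on CPF Cy5 replicate 1. The change of cyp-33E3 was -0.18 ± 0.09 (adjusted p = 0.568). The gene cyp-33E1 had a change of 0.05 ± 0.16 and the single high ratio of 0.84 on CPF Cy3 replicate 2, without which its change was -0.11.

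The subfamily cyp-34A, all on chromosome V, held the genes closest to the threshold. Of 9 measured genes 4 had a positive and 5 a negative change, with a median of -0.02. For cyp-34A9 the CPF signals were 9.53, 9.64 and 9.65 on CPF Cy5 replicates 1 to 3 and 9.29, 6.08 and 9.37 on CPF Cy3 replicates 1 to 3. Its control signals were 9.06, 9.11, 9.21, 8.96, 6.02 and 8.80 on the same arrays. The signal of cyp-34A9 was near background in both samples of CPF Cy3 replicate 2 and high on the other 5 arrays. On those 5 CPF was above control by 0.33 to 0.56, while on CPF Cy3 replicate 2 the difference was 0.05. The change of cyp-34A9 was 0.40 ± 0.09 (SE, n = 6), a fold of 1.32, with a 95% interval from 0.20 to 0.60 on the log2 scale and an adjusted p of 0.0893. It was positive in every limma setting tried, and without 1 array at a time the adjusted p ran from 0.0703 to 0.337.

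For cyp-34A10, the next gene on the chromosome, the CPF signals were 6.95, 7.24 and 7.14 on CPF Cy5 replicates 1 to 3 and 6.91, 8.26 and 6.98 on CPF Cy3 replicates 1 to 3. Its control signals were 6.50, 6.54, 6.77, 6.50, 7.43 and 6.87. It was above background on 4 CPF arrays and on 1 control array. CPF was above control on all 6 arrays, by 0.83 on CPF Cy3 replicate 2, where the signal was highest, and by 0.10 on CPF Cy3 replicate 3. The change of cyp-34A10 was 0.48 ± 0.11 (SE, n = 6), with a 95% interval from 0.23 to 0.72 and an adjusted p of 0.1001. It is a value against a control that was above background on 1 array only, and it was 0.26 without background correction (adjusted p = 0.203) and 0.93 with plain subtraction (adjusted p = 0.183). The PFP of the rank product was 0.0639 for cyp-34A10 and 0.176 for cyp-34A9.

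Both genes end a run of 6 neighbours from cyp-34A5 to cyp-34A10, of which cyp-34A8 was the only other gene above background on 3 or more arrays. Its change was -0.12 ± 0.09 (adjusted p = 0.731), with CPF above control on 1 of 6 arrays. The gene cyp-34A6 was near background on 5 arrays, with signals from 6.28 to 6.58 in CPF and in control worms. On CPF Cy5 replicate 1 its signal was 11.23 in CPF and 12.96 in the control, and the ratio there was -1.73. This single spot widened the 95% interval of cyp-34A6 to between -0.79 and 0.29. Of the neighbours cyp-34A1 and cyp-34A2, apart from that run, cyp-34A1 had a change of 0.21 ± 0.10 (adjusted p = 0.535) and cyp-34A2 one of 0.00123 ± 0.08.

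Families with a single measured gene gave no call either. For cyp-36A1, which acts below EGL-9 and HIF-1 in C. elegans, the ratios were 0.34, 0.18 and 0.38 on CPF Cy5 replicates 1 to 3 and 0.24, -0.30 and -0.25 on CPF Cy3 replicates 1 to 3. Its change was 0.10 ± 0.09 (adjusted p = 0.827). For cyp-43A1 they were 0.23, 0.23 and 0.02 on CPF Cy5 replicates 1 to 3 and 0.16, -0.53 and -0.59 on CPF Cy3 replicates 1 to 3, and the change was -0.08 ± 0.11 (adjusted p = 0.887). In both genes CPF was above control on 4 arrays and below it on CPF Cy3 replicates 2 and 3. The ratios of cyp-44A1 were -0.01, -0.24 and 0.08 on CPF Cy5 replicates 1 to 3 and 0.40, -0.10 and -0.49 on CPF Cy3 replicates 1 to 3, with a change of -0.06 ± 0.12 (adjusted p = 0.932). Its mean signal was 8.23 ± 1.10 in CPF and 8.29 ± 1.18 in control worms (SD, n = 6), and its ratios showed no common direction.

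The same split between arrays was seen in several of the 22 detected genes. Their median log2 ratio was 0.16, 0.20 and 0.27 on CPF Cy5 replicates 1 to 3 and 0.24 on CPF Cy3 replicate 1, but -0.11 on CPF Cy3 replicate 2 and -0.20 on CPF Cy3 replicate 3. Between 15 and 18 of the 22 ratios were positive on each of the 4 arrays named first, 9 on CPF Cy3 replicate 2 and 5 on CPF Cy3 replicate 3. Over all 10995 genes with this detection the median ratio stayed between -0.05 and 0.03 on every array. The loess step centres the ratios of each array near 0, so that this range was largely set by the processing. The 2 arrays were singled out after the ratios of the 22 genes were seen. CPF was above control on those 4 arrays and below it on CPF Cy3 replicates 2 and 3 in 6 of the 22 genes, cyp-13A2, cyp-14A5, cyp-23A1, cyp-33A1, cyp-36A1 and cyp-43A1, and in 7.07% of all detected genes. These 2 arrays share the dye orientation and the header day, and which of these or what else moved with the ratios was not tested. CPF Cy3 replicate 2 also had the lowest share of probes above background. Without both of these arrays 0 of the 46 genes were called and 12 had an unadjusted p below 0.05, against 19.5% of all genes.

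The medians of the neuron and germline marker lists moved with the same split, though not every gene of these lists did. The median ratio of 5 neuron markers was 0.20, 0.27 and 0.13 on CPF Cy5 replicates 1 to 3 and 0.33, -0.03 and -0.15 on CPF Cy3 replicates 1 to 3. That of 6 germline markers ran the other way, at -0.63, -0.46 and -0.16 on CPF Cy5 replicates 1 to 3 and -0.70, 0.21 and 0.33 on CPF Cy3 replicates 1 to 3. On CPF Cy5 replicates 1 to 3 the medians of body wall muscle markers were -0.04, -0.01 and 0.21. On CPF Cy3 replicates 1 to 3 they were -0.40, 0.34 and 0.78. For pharynx markers they were -0.60, -0.13, 0.38, -0.60, 0.46 and 0.82 in the same order. The medians of both lists were thus negative on the arrays of header day 1 and positive on those of header day 2. Single genes of these lists differed. The muscle gene myo-3 had ratios of 0.47 and 0.72 on CPF Cy5 replicates 1 and 2, and unc-15 had -1.38 on CPF Cy5 replicate 3. The pharynx gene ceh-22 was positive on every array. Medians of intestine markers, at 0.03, 0.05, -0.05, -0.39, -0.11 and 0.002 in that order, did not follow the split. The part of these tissues in the split of the P450 genes was not tested.

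**Figure D4:**
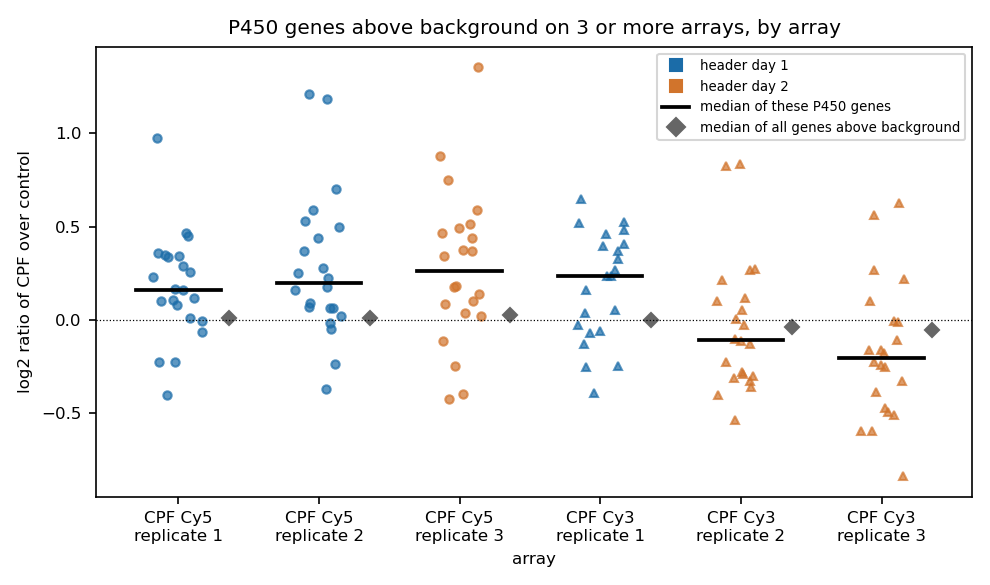
Log2 ratio of CPF over control (vertical axis) of the 22 P450 genes above background on 3 or more arrays, by array (horizontal axis), with circles for CPF Cy5 and triangles for CPF Cy3 arrays, blue for header day 1 and orange for header day 2. Black lines are medians of these genes, between 0.16 and 0.27 on 4 arrays and at -0.11 and -0.20 on CPF Cy3 replicates 2 and 3. Grey diamonds are medians of all 10995 genes with the same detection, which loess centres near 0.

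Genes that work with P450 enzymes were counted in 4 lists. Of 4 measured electron partners 0 passed the test. The reductase gene emb-8, which supplies electrons to microsomal P450 enzymes, had ratios of 1.00, 1.13 and 0.34 on CPF Cy5 replicates 1 to 3 and 0.27, -0.35 and 0.59 on CPF Cy3 replicates 1 to 3. Its change was 0.49 ± 0.15 with a 95% interval from 0.15 to 0.84 and an adjusted p of 0.235, and within header day 1 it was 0.67 with an adjusted p of 0.028 (limma). The cytochrome b5 gene cytb-5.1 had a change of 0.68 ± 0.18 with an adjusted p of 0.16 in limma, and a PFP of 0.00147 in the rank product. On CPF Cy3 replicate 2 its ratio was -0.38, against 0.60 to 1.36 on the other 5 arrays. Without that array its change was 0.87 with an adjusted p of 0.0378 (limma), where 68 of all 18865 genes were higher and 139 lower. Leaving out any other single array did not bring cytb-5.1 past the threshold. The other cytochrome b5 gene, cytb-5.2, had a change of -0.19 ± 0.15 (adjusted p = 0.766). For hpo-19 the change was 0.13 ± 0.21 (adjusted p = 0.912), with ratios from -1.07 on CPF Cy3 replicate 3 to 1.57 on CPF Cy5 replicate 1.

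In the sterol hormone pathway 0 of 7 genes passed, but only 3 of the 7 were above background on 3 or more arrays in at least 1 condition. The P450 gene daf-9 (CYP-22A1), whose enzyme makes the dafachronic acids that control larval development, was above background on 0 CPF arrays and 1 control array, so that no change is given for it (adjusted p = 0.855). Of 15 regulators of the response to foreign compounds, such as nhr-8, skn-1 and ahr-1, 0 passed, with changes from -0.12 to 0.28. The same detection was met by 13 of the 15. Of 6 genes of the oxygen sensing pathway 0 passed, with changes from -0.20 for nhr-46 to 0.11 for egl-9.

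The worms were used whole, so that fewer cells of a type and less RNA per cell cannot be told apart. Markers of the intestine, a main site of P450 expression in worms, were detected, with 0 of 9 passing the test and a median change of -0.06. Their summed signal on the linear scale was between 80770 and 110000 in CPF and between 84600 and 110400 in control worms. Of 5 body wall muscle, 4 pharynx and 5 neuron markers 0 passed, and of 6 hypodermis markers 1, the adult cuticle collagen col-19, was lower (-1.58 ± 0.21, adjusted p = 0.0196). Yolk protein genes passed the test as lower in 4 of 6 cases and sperm genes in 3 of 5, and 0 of 7 oocyte and 0 of 6 germline markers passed. All 6 yolk genes had negative changes, and so had the 4 sperm genes above background on 3 or more arrays. The other sperm gene, spe-9, was above background on 0 CPF arrays and 1 control array, so that no change is given for it. The yolk genes that did not pass, vit-3 and vit-5, had changes of -1.818 and -1.855, with adjusted p-values of 0.05396 and 0.05909 (limma). The part of these differences in the P450 values was not tested.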

How the data were processed

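The arrays were long-oligonucleotide arrays, read with a ScanArray Express scanner per the file headers. As deposited, intensity values on a linear scale, without normalization, gave each spot's brightness and that of its surroundings for either dye. For every spot the authors also deposited the percent of its pixels that were saturated, and a scanner code of unstated meaning. The authors' series table holds log2 ratios, made with loess and Aquantile in limma per the methods. Its columns matched loess ratios of CPF over control with no background correction (largest log2 difference 0.0148), so that scale, centring and direction were known, and their medians ran from -0.00213 to 0.00608. No column of per-sample values was left out for want of a sample. At least 25% of saturated pixels counted a spot as saturated, and at most 144 probes per sample were.

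Of 23232 spots 742 were control or empty. Sequence names were matched to the WBcel235 gene table, used for names and neighbours only, for 21382 probes, 31 more were matched through the annotation of the platform, and for 1077 the file's own name was used. Background was corrected with normexp (offset 50), ratios were normalized with loess (control spots at weight 0) and Aquantile, and lmFit and eBayes of limma 3.58.1 in R 4.3.3 were fitted to all probes with a treatment term and a dye intercept. Tests were two-sided, with Benjamini-Hochberg adjustment over 18865 genes, each by its brightest probe. A dye effect passed this adjustment in 0 of the 46 genes. The share over all genes is not given here, so that this count is not read as a trait of the 46. Tested on simulated data over all 18865 genes, the fit recovered 93% of changes of 1 and 98% of changes of 2 on the log2 scale. These changes were added to independent noise on normalized ratios of genes drawn at random. Dim spots and the split between arrays were not modelled, and smaller changes, such as those fitted to the 46 genes, were not simulated. The simulation therefore gives no rate of recovery for the 46 genes. The rank product had 100 permutations and a PFP threshold of 0.05. Tables were handled with pandas 2.3.3 in Python 3.11.15 and figures drawn with matplotlib 3.10.9. The number of arrays limits the precision.

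Values on every array were given for genes past the threshold, for the gene with the lowest unadjusted p in each subfamily, and for detected genes with an absolute log2 change of at least 0.5. The other genes with such values, among them cyp-13A2, cyp-33C5, cyp-33C9, cyp-34A10 and the pathway gene cytb-5.1, were chosen after their values were seen. The 46 genes, the pathway lists and the marker lists were chosen with earlier results of these data known. Alternatives covered background correction, normalization, filters, header day, replicate number, probes per gene, the test and single arrays. No sequence is shown, since none was among the tables used here.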

Additional observations from a re-analysis of the deposited data

Results flagged for a closer look

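In 6 of the 46 genes 1 of the 6 log2 ratios lay far from the others, with a gap to the nearest ratio that was past Dixon's critical value as a share of the whole range. Chance alone flags about 1 in 20 such groups. The share over all genes is not given here, so that the 6 of 46 is not read as an excess in these genes. For cyp-34A6 the ratio was -1.73 on CPF Cy5 replicate 1, the nearest being -0.14, and both samples were bright there only. For cyp-13A3 it was -0.60 on CPF Cy3 replicate 3, the nearest being 0.04. Also on CPF Cy3 replicate 3, cyp-13B2 had a ratio of 0.40 (nearest 0.05) and cyp-13A7 one of 0.29 (nearest 0.09), and these 3 genes were not above background in either sample of that array. For cyp-33C5 the ratio was 0.25 on CPF Cy5 replicate 2, against -0.22 for the nearest, and both samples were above background. For cyp-34A2 it was 0.35 on CPF Cy5 replicate 3, against 0.01 for the nearest, with CPF above background and the control not.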

How the results depend on the processing

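Of the 46 genes 0 were lower in CPF treated worms in each setting, and 0 were higher except for 1 with scanner code 3 only (cyp-33C8), 1 within header day 1 (cyp-13A2) and 1 by the rank product (cyp-33C8). Leaving out 1 array at a time gave 0 in each case. The median change over the 46 genes was 0.01, and between 0.00718 and 0.05 with 1 array left out. Over the 22 genes that passed the filter on dim probes it was 0.10, since fewer genes entered. Of the other 28 P450 genes 10 were higher with all arrays, 4 without background correction, 2 with plain subtraction, 4 from the authors' series table, 6 with scanner code 3 only, and 2 to 11 with 1 array left out. Of the pathway genes 0 were called with all arrays, 1 with median centring, 1 with scanner code 3 only, 2 within header day 1, 1 by the rank product, 1 without both CPF Cy3 replicates 2 and 3, and 0 to 1 with 1 array left out. The genes behind these counts were cytb-5.1 and, within header day 1, emb-8. Where no cause is named in these sentences, the cause was not tested.

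Changes of 26 named or detected genes were recomputed under 21 alternatives, which gave 526 values. Of these 474 kept sign and side of the threshold, 2 passed the threshold (cyp-33C8 and cyp-13A2, given above) and 50 turned their sign, and 15 of the 26 genes never turned. Within header day 1 the values that turned were 0.0463 for cyp-13A6, -0.0101 for cyp-13B2, 0.30 for cyp-14A5, 0.0676 for cyp-33A1, -0.0908 for cyp-33E1, -0.0636 for cyp-34A2, 0.19 for cyp-43A1 and 0.14 for cyp-44A1. Within header day 2 they were -0.0784 for cyp-13A2, -0.0922 for cyp-33B1 and -0.11 for cyp-33D1. With header day as a block they were 0.0803 for cyp-14A5, 0.0115 for cyp-33A1, -0.0186 for cyp-33B1, -0.0401 for cyp-33E1 and 0.0161 for cyp-44A1. Without both CPF Cy3 replicates 2 and 3, a setting chosen after seeing the data, they were 0.0274 for cyp-13A6, -0.011 for cyp-13B2, 0.31 for cyp-14A5, 0.13 for cyp-33A1, -0.00542 for cyp-33B1, -0.17 for cyp-33E1, 0.16 for cyp-43A1 and 0.17 for cyp-44A1.

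With median centring the turned values were 0.00143 for cyp-13A6, 0.0321 for cyp-14A5, -0.0191 for cyp-33D1, -0.00468 for cyp-33E1, -0.0764 for cyp-34A2 and 0.0284 for cyp-44A1. Without background correction they were -0.0101 for cyp-33B1 and -0.00614 for cyp-34A2, and from the authors' series table -0.01002 and -0.00737. With plain subtraction they were -0.22 for cyp-13B2 and 0.00291 for cyp-14A5, with scaling between arrays 0.0175 for cyp-14A5, and with scanner code 3 only 0.0501 for cyp-13A6. With 1 array left out the changes ran from -0.16 to 0.11 for cyp-14A5, from -0.17 to 0.049 for cyp-33A1, from -0.17 to 0.0476 for cyp-44A1, from -0.036 to 0.0776 for cyp-33B1, from -0.11 to 0.13 for cyp-33D1, from -0.11 to 0.17 for cyp-33E1 and from -0.0657 to 0.0363 for cyp-34A2.

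Over all 18865 genes the limma fit called 61 higher and 164 lower. It called 13 and 6 without background correction and from the series table, 3 and 0 with plain subtraction, 231 and 630 within header day 1, 45 and 94 within header day 2, 49 and 81 with header day as a block, and 188 and 431 without both CPF Cy3 replicates 2 and 3. Without CPF Cy5 replicate 2 it called 7 and 0, without CPF Cy3 replicate 3 19 and 5, and without CPF Cy5 replicate 1 16 and 21. The rank product called 154 and 392. Samples of the same replicate number in both dye orientations deviated together with correlations of 0.158, 0.07 and 0.02. The 2 arrays of replicate 1 also share header day 1, and those of replicate 3 header day 2. With 3 arrays per orientation these correlations cannot decide if samples of the same number share material. With the replicate block 29 genes were higher and 31 lower, and 0 of the 46. Genes above background on few arrays limit what could be seen, since 17 of the 46 were above it nowhere.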
